A study of Mus musculus with 8 samples.

Results

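The genes described here are 10 genes that macrophages and other cells of the myeloid lineage are known to express: the C1q chains *C1qa*, *C1qb* and *C1qc*, the receptor *Csf1r*, the signaling adaptors *Tyrobp* and *Fcer1g*, the class II chaperone *Cd74*, and the MHC class II chains *H2-Aa*, *H2-Ab1* and *H2-Eb1*. They were chosen by gene symbol, and all 10 were found among the 43629 genes of the count table. All 10 had at least 1 count, as did 17492 genes of the table. C1q is the recognition molecule that starts the classical complement pathway, and tissue macrophages are a main source of it. Each C1q subunit needs an A, a B and a C chain, which these genes encode. MHC class II molecules present peptides from engulfed material to T cells. They are heterodimers of an alpha and a beta chain, and Cd74, the invariant chain, holds them during assembly. Tyrobp and Fcer1g are membrane adaptors whose immunoreceptor tyrosine-based activation motifs (ITAMs) pass the signal of myeloid receptors on to the kinase Syk. Csf1r is the receptor for CSF1, on which most macrophages and the osteoclast precursors depend. In growing bone these genes are known from macrophages, osteoclasts and the marrow beside the growth plate, and cartilage itself holds few such cells.

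The study compared the resting zone, where slowly dividing chondrocytes reside, with the proliferative zone, where flattened chondrocytes divide in columns. All 4 mice carried *Axin2Cre*ERT2 and the R26RTdTomato reporter, in which tamoxifen turns on red fluorescence in cells that express *Axin2* and in the cells they give rise to. They received 3 daily injections of tamoxifen from postnatal day 23 (P23) and were examined at P30. From frozen sections of 8 μm, fluorescent cells of the resting zone were cut by laser as the resting group. Unlabeled flattened chondrocytes at least 50 μm from the secondary ossification center were cut as the proliferative group. The labels name tibiae, whereas the methods name the distal femur and the proximal tibia. Each mouse gave 1 library per group, so that 4 resting and 4 proliferative libraries came from mice 1 and 2, which are male, and mice 6 and 13, which are female. Every library is therefore a pool of cells cut from 1 animal, selected by fluorescence, shape and position, with no sort against blood cells.

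The libraries held 192882 to 462044 counts in the resting zone and 249284 to 631474 counts in the proliferative zone. At these totals a limit of 3 counts equals 6.49 to 15.6 CPM (counts per 1000000 counts of the library) in a resting library and 4.75 to 12.0 CPM in a proliferative library, so most members were measured close to this limit. Levels are given as CPM scaled by the trimmed mean of M values (TMM). A pair of libraries stood apart from the rest of its group. The proliferative library of mouse 1 held more marrow and blood genes than the other proliferative libraries, with 614 CPM over 11 neutrophil genes against 0 to 138 CPM, and 1760 CPM over 8 erythroid genes against 0 to 347 CPM. The resting library of mouse 6 held more chondrocyte genes than the other resting libraries, with 19100 CPM over 14 genes against 7420 to 10300 CPM. Results that rest on these libraries are given with and without them.

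The strand on which the counts fell bears on what each value means. The library kit keeps strand, and the strand setting of the counting is not given in the sources used here. Over the 42462 genes with an annotation, 16.3% shared exon bases with a gene on the opposite strand, yet these genes took 70.0% of all counts, and they were 46.6% of the genes past the filter on low counts. Of the 30 genes with the most counts, 24 shared such bases. In the mitochondrial genome, the 12 protein-coding genes on the plus strand, which are normally the abundant ones, held 37887 counts, whereas *mt-Nd6*, the only one on the minus strand, held 137491. In the female mice *Xist*, the RNA of the inactive X chromosome, had 1367 counts and its antisense partner *Tsix* had 18683. *Col9a3*, a cartilage collagen chain, had 414 counts in the resting and 1342 in the proliferative zone, while *Tcfl5* on the opposite strand had 3660 and 60689. *Alas2*, the heme enzyme of red cell precursors, had 420 and 42 counts, while *Apex2* on the opposite strand had 4502 and 503. These pairs were chosen after their values were seen. In each of them the greater part of the counts stood under the name of the opposite-strand partner, as it would if reads had been counted on the wrong strand. Every value below is therefore the count listed under a gene's name. Where a gene overlaps another on the opposite strand, its counts may belong to that partner, and where it overlaps none, they may be only a small part of its reads, so that a count of 0 does not show absence. Of the members, only *Csf1r* shared exon bases with an opposite-strand gene.

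The members lie on chromosomes 1, 4, 7, 17 and 18 (GRCm38). *C1qa* (4:136895917-136898803), *C1qc* (4:136889804-136893065) and *C1qb* (4:136880129-136886187) are neighbors on the minus strand. *H2-Ab1* (17:34257689-34269419), *H2-Aa* (17:34282744-34287823) and *H2-Eb1* (17:34305867-34316674) lie in the MHC region, *H2-Aa* on the minus strand and the others on the plus strand. All are protein-coding, and a count can fall on any of their exons, untranslated regions included. Of the 10 members, 5 matched the RefSeq promoter table for build GRCm38.p6, namely *Fcer1g*, *C1qb*, *C1qc*, *H2-Aa* and *H2-Eb1*, whereas *C1qa*, *Csf1r*, *Tyrobp*, *Cd74* and *H2-Ab1* did not. The promoters of a C1q pair and a class II pair are shown because they are the C1q and class II members with an entry in that table. Each runs from 250 bases before to 50 bases after the start of the gene, 5′ to 3′ on the strand of the gene, and the capitals mark matches to the motifs searched:
C1qb, chr4:136886151-136886450, minus strand: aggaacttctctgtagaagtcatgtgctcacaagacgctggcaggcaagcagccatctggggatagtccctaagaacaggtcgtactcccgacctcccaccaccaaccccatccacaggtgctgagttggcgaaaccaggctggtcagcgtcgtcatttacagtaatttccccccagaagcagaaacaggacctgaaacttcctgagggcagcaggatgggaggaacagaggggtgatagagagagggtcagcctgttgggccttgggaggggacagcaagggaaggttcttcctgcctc
C1qc, chr4:136892865-136893164, minus strand: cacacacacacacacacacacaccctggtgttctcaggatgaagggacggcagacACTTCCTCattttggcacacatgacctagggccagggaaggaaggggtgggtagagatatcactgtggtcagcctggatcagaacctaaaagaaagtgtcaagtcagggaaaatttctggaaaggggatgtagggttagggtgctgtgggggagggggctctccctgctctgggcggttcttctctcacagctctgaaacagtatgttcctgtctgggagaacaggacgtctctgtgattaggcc
H2-Aa, chr17:34287774-34288073, minus strand: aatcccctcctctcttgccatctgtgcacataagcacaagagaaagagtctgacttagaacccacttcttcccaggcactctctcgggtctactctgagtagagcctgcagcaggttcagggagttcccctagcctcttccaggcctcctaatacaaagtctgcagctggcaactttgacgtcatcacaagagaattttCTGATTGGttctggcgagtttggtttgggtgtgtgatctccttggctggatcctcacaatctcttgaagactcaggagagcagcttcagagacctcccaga
H2-Eb1, chr17:34305617-34305916, plus strand: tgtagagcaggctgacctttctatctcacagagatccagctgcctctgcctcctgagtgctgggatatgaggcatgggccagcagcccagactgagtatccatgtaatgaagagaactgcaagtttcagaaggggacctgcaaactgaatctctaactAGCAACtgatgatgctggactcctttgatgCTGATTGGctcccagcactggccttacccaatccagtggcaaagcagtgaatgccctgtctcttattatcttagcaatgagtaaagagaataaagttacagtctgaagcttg
Motifs were searched on both strands as the letters AGCAAC (the X box core of class II promoters), CTGATTGG (the Y box) and GAGGAAGT (a PU.1-type ETS site). The *H2-Eb1* window held an X box core 92 bases before the start and a Y box 62 bases before it. The *H2-Aa* window held a Y box 51 bases before the start. The *C1qc* window held a PU.1-type match on the reverse strand 195 bases before the start, and the windows of *C1qb* and *Fcer1g* held none of these letters. These starts are those of RefSeq. For *C1qc* the RefSeq start lies inside the gene as listed above. The 5′ end listed there, 4:136893065, falls within the window, and the match lies closer to that end. None of these matches overlapped another. Among 32851 promoters of the same length, 14.8% held the X box core, 4.1% the Y box and 3.2% the PU.1-type letters, so each match is a description of the letters and not a site of binding.

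Of the 10 members, 7 were higher in the resting zone in all 4 mice with no overlap between the zones: the 3 C1q chains, both ITAM adaptors, *Cd74* and *H2-Aa*. The same separation was seen for 7.70% of the 17492 genes with a count and 16.7% of the 3793 genes past the filter on low counts. *H2-Eb1* was higher in the resting zone in 3 of 4 mice without passing the test. The counts listed for *Csf1r*, which may belong to the gene opposite to it, and for *H2-Ab1* did not share this pattern. Their levels overlapped between the zones, and *H2-Ab1* was higher in the proliferative zone in 3 of 4 mice. In bulk libraries such as these, fewer cells of a type and less RNA per cell cannot be told apart.

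**Figure D1:**
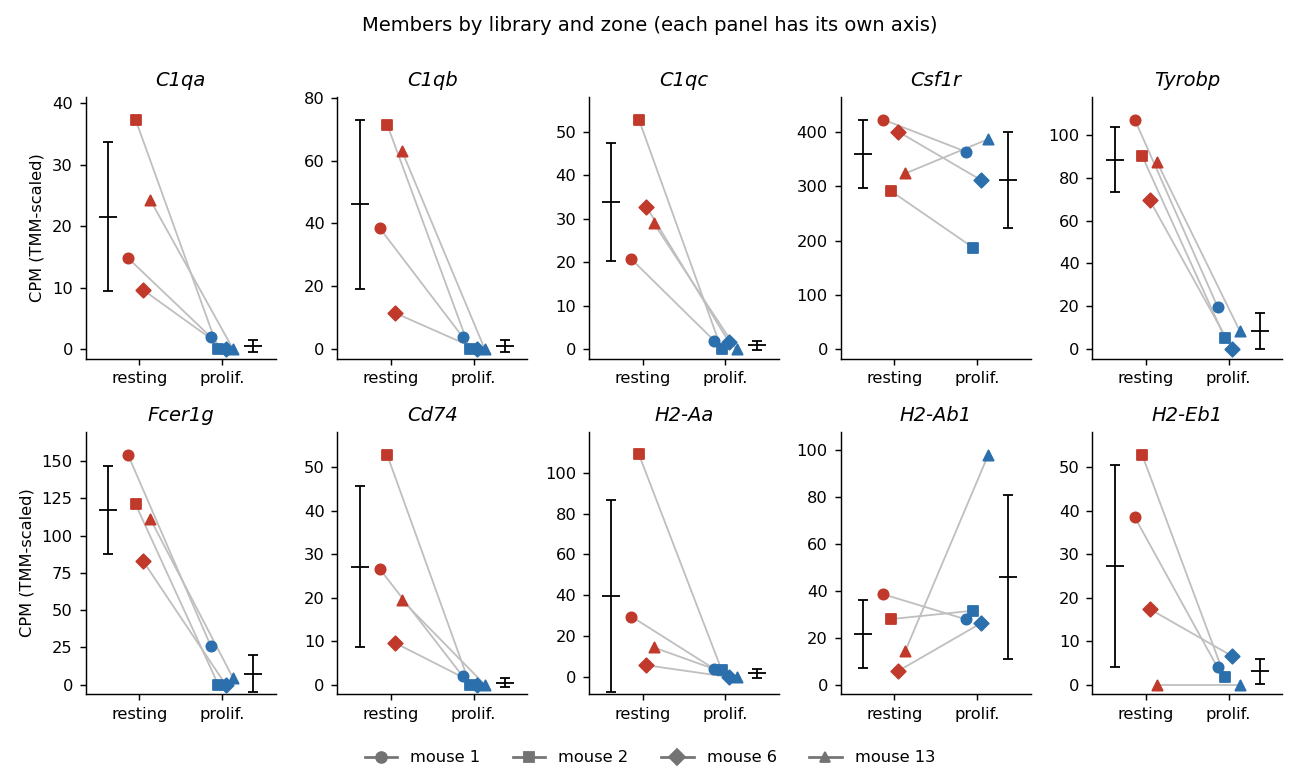
TMM-scaled CPM of the 10 members in each library (vertical axis, starting near 0 and set for each gene), with the resting zone in red and the proliferative zone in blue. Symbols stand for mice, gray lines join the 2 libraries of a mouse, and black bars show the mean ± SD of 4 libraries. *Csf1r* and *H2-Ab1* overlap between the zones, and the proliferative libraries lie at or near 0 for the C1q chains and *Cd74*.

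The C1q chains were detected in every resting library and had 0 to 2 counts each in the proliferative libraries. *C1qa*, which encodes the A chain, had 5, 12, 5 and 5 counts in the resting libraries of mice 1, 2, 6 and 13, and 1, 0, 0 and 0 counts in their proliferative libraries. *C1qb*, for the B chain, had 13, 23, 6 and 13 counts against 2, 0, 0 and 0. *C1qc*, for the C chain, had 7, 17, 17 and 6 counts against 1, 0, 1 and 0. The resting library of mouse 2 was the highest for all 3 chains on the CPM scale, and the lowest resting library of each chain was above the highest proliferative one. The mean levels were 21.5 ± 12.1 CPM against 0.497 ± 0.994 CPM for *C1qa* (SD, n = 4), 46.1 ± 26.9 against 0.994 ± 1.99 CPM for *C1qb*, and 33.8 ± 13.6 against 0.905 ± 1.06 CPM for *C1qc*. As the proliferative zone held only 1 or 2 counts per chain in all, the ratio between the zones over the pooled counts was wide. It was 37.5 for *C1qa* (exact 95% interval 6.18 to 1530), 38.2 for *C1qb* (10.1 to 323) and 32.6 for *C1qc* (8.54 to 277). These intervals cover counting error only. For each chain the exact permutation test over the 8 libraries (two-sided) gave p = 0.0286, the smallest that 4 against 4 libraries can give. A permutation within the 4 mice, which pair the libraries, could not reach 0.05.

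None of the C1q chains passed the filter on low counts, so they were tested in a wider fit, which took in all 17492 genes that had a count. There the edgeR quasi-likelihood test gave adjusted p = 0.00216 for *C1qa*, 2.24e-06 for *C1qb* and 6.61e-05 for *C1qc*, and all 3 were called (adjusted p below 0.01 and a log2 fold change beyond 1). The p-values of the wider fit can understate the spread between libraries. For *Hbb-bs*, an erythroid gene, the SE was 1.25 in the filtered fit (edgeR adjusted p = 0.0381) and 0.31 in the wider fit (edgeR adjusted p = 7.06e-26). Summed over the chains, the resting libraries held 74.0, 161, 54.0 and 116 CPM and the proliferative libraries held 7.95, 0, 1.63 and 0 CPM. The call of *C1qa* was lost when 1 library was left out, with adjusted p = 0.0273 without the resting library of mouse 2, 0.0172 without the proliferative library of mouse 2 and 0.0186 without that of mouse 6. Of the 5 counts of the 3 chains in the proliferative zone, 4 came from mouse 1, and without its library *C1qa* and *C1qb* had 0 counts there. The calls of *C1qb* and *C1qc* held without any single library.

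The ITAM adaptors were the members with the most counts among those that rose in the resting zone. *Tyrobp*, the adaptor of TREM-type receptors, had 36, 29, 36 and 18 counts in the resting libraries of mice 1, 2, 6 and 13, and 10, 3, 0 and 2 counts in their proliferative libraries. *Fcer1g*, the gamma chain shared by Fc receptors, had 52, 39, 43 and 23 counts against 13, 0, 0 and 1. For both genes the proliferative library of mouse 1 was the highest of its zone and still lay below every resting library. The zone means (resting first) were 88.3 ± 15.2 and 8.41 ± 8.41 CPM for *Tyrobp* (SD, n = 4), and 117 ± 29.3 and 7.52 ± 12.4 CPM for *Fcer1g*. Both passed the filter on low counts. The log2 fold change of the resting over the proliferative zone was 3.46 (SE 0.66, edgeR adjusted p = 0.00176) for *Tyrobp* and 3.98 (SE 0.82, edgeR adjusted p = 0.00272) for *Fcer1g*. The exact permutation test gave p = 0.0286 for each.

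These were the only members called in the filtered fit, 2 of the 4 that passed the filter, with both at a higher level in the resting zone. Of all 3793 genes tested there, 11.0% were called for a higher level in the resting zone, and 6.93% were called in the opposite direction. A member that passed the filter only through its resting libraries had to differ, so this count was not tested. Both calls depended on single libraries. Without the proliferative library of mouse 2 the adjusted p rose to 0.0123 for *Tyrobp* and 0.0106 for *Fcer1g*, and without that of mouse 13 to 0.0143 for *Fcer1g*. Without both libraries of a mouse, 3 members were called without mouse 1 (8.89% of all genes tested) or mouse 6 (11.3%), 1 without mouse 13 (4.15%) and 0 without mouse 2 (6.38%). These were both adaptors with *C1qc* without mouse 1 and with *C1qb* without mouse 6, and *C1qc* alone without mouse 13. The size of the difference moved with single proliferative libraries. Without that of mouse 1 the log2 fold change was 4.43 for *Tyrobp* and 6.78 for *Fcer1g*, and without the proliferative library of mouse 6 it was 2.84 and 3.35. For *Fcer1g* it was 3.38 without that of mouse 2.

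In the wider fit, 7 of the 10 members were called for a higher level in the resting zone and 0 in the opposite direction. The background in that fit was 4.74% of 17492 genes called toward the resting zone and 2.68% toward the proliferative zone. The median log2 fold change was 3.81 over the 10 members and 0.16 over all genes there. Every resting library lay above every proliferative library for 7 members, against 7.70% of all 17492 genes and 16.7% of the 3793 genes past the filter. Many of the 17492 genes have too few counts to separate the zones. For the adaptors the wider fit gave smaller p-values than the filtered fit, with edgeR adjusted p = 8.84e-07 for *Tyrobp* and 7.63e-10 for *Fcer1g*, whereas for *Csf1r* it gave a larger one (0.938). When genes with at least 15 counts in all libraries together were fitted, an alternative chosen after seeing the data, 6 members were called against 4.71% of all genes fitted, as the adjusted p of *H2-Aa* rose to 0.014. Adjusted p for the other 6 lay between 0.00152 for *C1qc* and 0.00682 for *C1qa*.

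**Figure D2:**
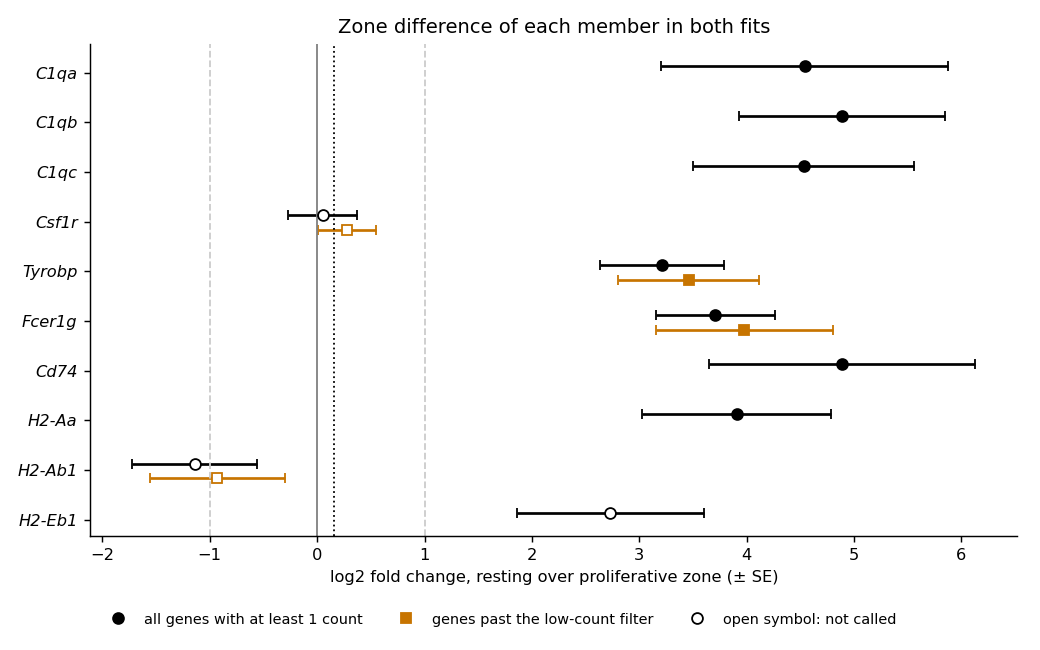
Log2 fold change of the resting over the proliferative zone for each member (horizontal axis), as points with SE bars from edgeR, in the wider fit that took in each gene with a count (black circles) and, for the 4 members that passed the filter on low counts, in the filtered fit (orange squares). Filled symbols were called, dashed lines mark a log2 fold change of 1 in either direction, and the dotted line marks the median of all genes (0.16). The 7 called members lie between 3.21 and 4.89 in the wider fit, whereas *Csf1r* lies at 0.05 and *H2-Ab1* at -1.14.

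Among the class II genes, *Cd74*, the chaperone, and *H2-Aa*, the alpha chain of the I-A molecule, were higher in the resting zone, while *H2-Ab1*, the beta chain of the same molecule, was not. *Cd74* had 9, 17, 5 and 4 counts in the resting libraries of mice 1, 2, 6 and 13, and 1, 0, 0 and 0 counts in their proliferative libraries. Its mean level was 27.1 ± 18.5 CPM against 0.497 ± 0.994 CPM (SD, n = 4), and the ratio over the pooled counts was 48.6 (exact 95% interval 8.16 to 1970). It was called in the wider fit (edgeR adjusted p = 0.000241), and the call was lost without the resting library of mouse 2 (adjusted p = 0.0115). No proliferative library but that of mouse 1 held a *Cd74* count. *H2-Aa* had 10, 35, 3 and 3 counts in the resting libraries and 2, 2, 0 and 0 in the proliferative ones. On the CPM scale these were 29.6, 109, 5.79 and 14.5 against 3.98, 3.50, 0 and 0. The resting library of mouse 2 alone held 35 of the 51 resting counts of *H2-Aa*. Its log2 fold change was 3.91 (SE 0.88, edgeR adjusted p = 9.53e-05) with that library and 2.64 (edgeR adjusted p = 0.121) without it.

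*H2-Eb1*, the beta chain of the I-E molecule, had 13, 17, 9 and 0 counts in the resting libraries of mice 1, 2, 6 and 13, and 2, 1, 4 and 0 in their proliferative libraries. Both libraries of mouse 13 were at 0, which at their depth allows up to 15.6 and 12.0 CPM. In the other mice the resting library was the higher one. The means were 27.2 ± 23.2 and 3.07 ± 2.83 CPM (SD, n = 4). Its log2 fold change of 2.73 (SE 0.87, edgeR adjusted p = 0.0145) was not called. Without the resting library of mouse 13 the adjusted p was 0.00231, and without that of mouse 6 it was 0.00953, so that the gene was then called. The exact permutation test gave p = 0.143.

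*H2-Ab1* had 13, 9, 3 and 3 counts in the resting libraries of mice 1, 2, 6 and 13, and 14, 18, 16 and 23 counts in their proliferative libraries. On the CPM scale these were 38.5, 27.9, 5.79 and 14.5 against 27.8, 31.5, 26.1 and 97.7. The zones overlapped, since the resting library of mouse 1 was above 3 of the 4 proliferative libraries. It averaged 21.7 ± 14.4 CPM over the resting and 45.8 ± 34.7 CPM over the proliferative libraries (SD, n = 4), and the latter mean fell to 28.5 ± 2.76 CPM (SD, n = 3) without mouse 13. The log2 fold change was -0.93 (SE 0.63, edgeR adjusted p = 0.294) in the filtered fit and -1.14 (SE 0.58, edgeR adjusted p = 0.211) in the wider fit. The exact permutation test gave p = 0.257. *H2-Ab1* was thus the only class II member with more than 4 counts in each proliferative library, and 71 of its 99 counts fell there. It shares no exon bases with a gene on the opposite strand, and the nearest such gene, *H2-Aa*, lies 13325 bases away.

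The alpha and beta chains of the I-A molecule were set side by side after their values had been seen. *H2-Ab1* took 56.5%, 20.5%, 50.0% and 50.0% of the summed counts of *H2-Ab1* and *H2-Aa* in the resting libraries of mice 1, 2, 6 and 13. In their proliferative libraries it took 87.5%, 90.0%, 100% and 100%. The share was higher in the proliferative library of all 4 mice and the zones did not overlap, although the resting shares of mice 6 and 13 rest on 6 counts each. No test is given for a comparison chosen in this way. Summed over *Cd74* and the 3 class II chains, the resting libraries held 133, 242, 38.6 and 48.4 CPM and the proliferative libraries held 37.8, 36.8, 32.7 and 97.7 CPM, with overlap. Without *H2-Ab1* the sums were 94.7, 214, 32.8 and 33.9 CPM against 9.94, 5.26, 6.54 and 0 CPM, with no overlap.

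The row listed as *Csf1r*, the receptor, had the most counts of all members and did not differ between the zones beyond the spread, but it overlaps *Hmgxb3* on the opposite strand, and its counts cannot be assigned to the receptor with the strand in doubt. They were 143, 94, 208 and 67 in the resting libraries of mice 1, 2, 6 and 13, and 183, 107, 191 and 91 in their proliferative libraries. On the CPM scale these were 423, 292, 401 and 324 against 364, 187, 312 and 387. The resting library was the higher one in 3 of 4 mice, and the zones overlapped. The means were 360 ± 62.3 and 312 ± 89.0 CPM (SD, n = 4), with a log2 fold change of 0.28 (SE 0.27, edgeR adjusted p = 0.469) and an exact permutation p = 0.457. The sign of this difference was not stable, and without the proliferative library of mouse 2 it was -0.02. The proliferative libraries of mice 2, 6 and 13 thus held 107, 191 and 91 counts listed for *Csf1r* beside 0 to 1 counts of the summed C1q chains and 0 to 3 counts of the summed ITAM adaptors.

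The last 873 exon bases of *Csf1r*, which lies on the plus strand at 18:61100598-61132149, overlap the end of *Hmgxb3*, which lies on the minus strand at 18:61131277-61177050. *Hmgxb3* had 10, 14, 10 and 19 counts in the resting libraries and 3, 1, 0 and 1 in the proliferative libraries of mice 1, 2, 6 and 13. Its zones did not overlap, with 46.1 ± 32.1 against 2.99 ± 2.64 CPM (SD, n = 4) and a log2 fold change of 3.71 (SE 0.83, edgeR adjusted p = 9.59e-05) in the wider fit. The counts listed for *Hmgxb3* thus differed between the zones in the direction of the 7 called members, and those listed for *Csf1r* did not. If reads were counted on the wrong strand, the names are exchanged in the shared bases, and the counts listed for *Hmgxb3* in those bases would be those of *Csf1r*. How many of the 53 resting and 5 proliferative counts listed for *Hmgxb3* fall there is not known, and this was not tested. The share of *Csf1r* in the summed counts of the pair, compared after the values were seen and so without a test, was 93.5%, 87.0%, 95.4% and 77.9% in the resting libraries and 98.4%, 99.1%, 100% and 98.9% in the proliferative libraries, with no overlap. Which gene the counts of this pair belong to cannot be told apart from the deposited counts, so no direction is given for *Csf1r*.

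**Figure D3:**
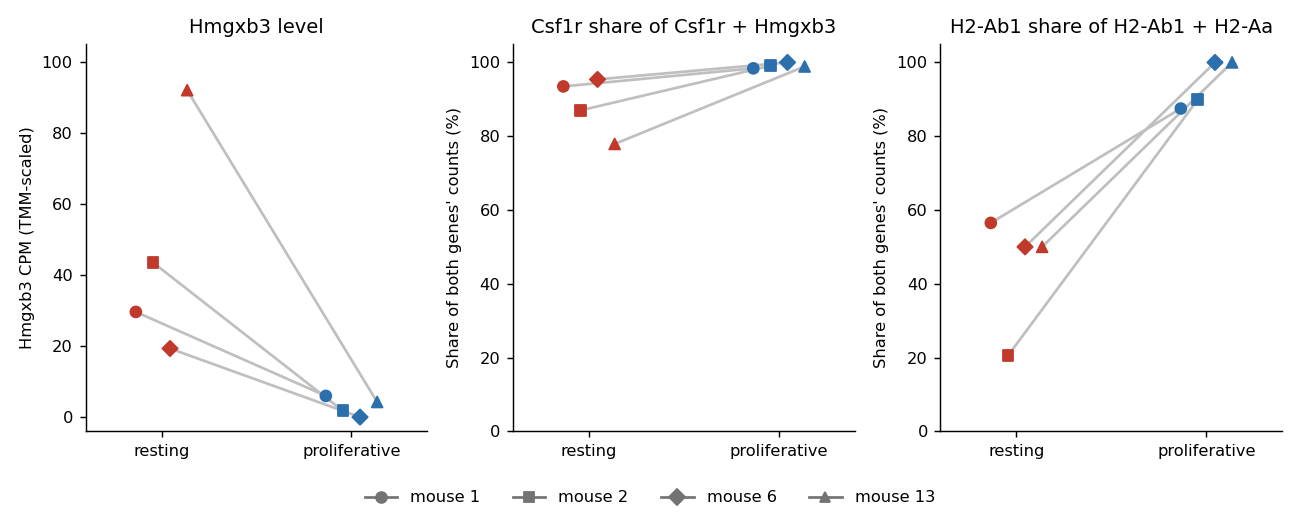
Left, TMM-scaled CPM of *Hmgxb3*, the gene on the strand opposite to *Csf1r*. Middle and right, the percentage of *Csf1r* in the counts of *Csf1r* plus *Hmgxb3* and of *H2-Ab1* in the counts of *H2-Ab1* plus *H2-Aa*, with both share axes starting at 0. Symbols stand for mice, resting libraries are red and proliferative libraries blue, and the shares are 77.9% to 95.4% against 98.4% to 100% for *Csf1r* and 20.5% to 56.5% against 87.5% to 100% for *H2-Ab1*.

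The order of the levels holds for the counts as listed, since the share of a gene's reads that was counted is not known. Whether counts scale with exon length after the amplification of the RNA was not tested. By CPM alone the order in the resting zone differed, with *Csf1r* at 360, *Fcer1g* at 117 and *Tyrobp* at 88.3 CPM. Per kilobase of exon, *Fcer1g* and *Tyrobp* were the highest members in the resting zone, with 134 ± 33.5 and 132 ± 22.8 CPM per kilobase (SD, n = 4), and their library ranges overlapped. *Csf1r* followed at 62.4 ± 10.8 and *C1qb* at 42.4 ± 24.7 CPM per kilobase, and the range of *Csf1r* lay below that of *Tyrobp*. The other members lay between 8.44 ± 5.62 for *H2-Ab1* and 20.7 ± 11.7 for *C1qa*, and each neighbor in this order overlapped the next. In the proliferative zone the order changed, with *Csf1r* at 54.1 ± 15.4, *H2-Ab1* at 17.8 ± 13.5, *Tyrobp* at 12.6 ± 12.6 and *Fcer1g* at 8.61 ± 14.2 CPM per kilobase. The remaining members lay at 1.58 CPM per kilobase or less, and all neighbors in this order overlapped.

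The zone difference of the members was also compared between the sexes, with 2 mice per sex. In the filtered fit 0 of the 4 members, and 0 of 3793 genes, passed an adjusted p of 0.01 for the interaction of zone and sex (edgeR quasi-likelihood test). At an unadjusted p under 0.05 there was 1 of the 4 members and 250 of all genes. The member was *H2-Ab1*, whose log2 fold change was higher in males by 2.84 (SE 1.14, edgeR adjusted p = 0.723). In the wider fit, 0 of 10 members and 27 of 17492 genes passed, and 2 of 10 members and 856 of all genes had an unadjusted p under 0.05.

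The other genes of the same pathways were described by lists. Of 36 other complement genes, 21 had a count and 4 passed the filter, and 3 of these were called higher in the resting zone. These included *Clu*, a regulator of the terminal pathway, and *Cfp*, which stabilizes the convertase of the alternative pathway. *Clu* had 39, 24, 76 and 16 resting counts in mice 1, 2, 6 and 13 against 0 in every proliferative library. *Cfp* had 9, 12, 25 and 11 counts against 3, 2, 1 and 0 (log2 fold change 3.67, SE 0.60, edgeR adjusted p = 0.000642). *Masp2*, a protease of the lectin pathway, was tested and not called, with a log2 fold change of -0.35 (SE 0.27, edgeR adjusted p = 0.358), and it overlaps *Tardbp* on the opposite strand by 1817 exon bases. Of the 21 in the wider fit, 8 were called for a higher and 0 for a lower level in the resting zone, among them *C3*, the central component, and the chains *Itgam* and *Itgb2* of complement receptor 3. *C1ra* and *C1s1*, the proteases that C1q carries, had 5 and 6 counts in all libraries together.

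Of 20 other genes of class II presentation, 16 had a count, 3 passed the filter and 2 of these were called higher in the resting zone. They were *Ctsb*, a lysosomal protease with a log2 fold change of 2.84 (SE 0.41, edgeR adjusted p = 0.000392), and *Ifi30*, the lysosomal thiol reductase, with 1.87 (SE 0.41, edgeR adjusted p = 0.00411). *Ctsb* overlaps *Fdft1* on the opposite strand by 774 exon bases. *Ctss*, the protease that cleaves the invariant chain, was called in the wider fit together with *Ctsb*, 2 of 16, with 27, 38, 11 and 27 resting counts against 9, 0, 0 and 0. *Ifi30* was not called in that fit (edgeR adjusted p = 0.016). *Ciita*, the coactivator that class II transcription needs, had 1 count in 1 resting library. *Rfxank*, a subunit of its partner complex RFX, overlaps *Nr2c2ap* on the opposite strand by 1341 exon bases. *Rfxank* was tested and not called, with a log2 fold change of -0.38 (SE 0.38, edgeR adjusted p = 0.499). *H2-DMa* and *H2-DMb1*, the chains of the peptide exchanger H2-DM, had 22 and 9 counts in the resting zone and 40 and 28 in the proliferative zone, with edgeR adjusted p = 0.684 and 0.401. Each proliferative library held at least 6 counts of *H2-DMa*, which overlaps *Brd2* on the opposite strand by 360 exon bases.

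Class I presentation was described for comparison, as its genes are expressed in nearly all cells. Of 13 genes, 4 passed the filter and 2 were called higher in the resting zone. These were *B2m*, the light chain, with a log2 fold change of 3.25 (SE 0.52, edgeR adjusted p = 0.000677), and the heavy chain gene *H2-D1* with 3.53 (SE 0.50, edgeR adjusted p = 0.00033). *H2-K1*, another heavy chain gene of close sequence, was not called, with 0.68 (SE 0.49, edgeR adjusted p = 0.325). Reads of such related heavy chain genes can be hard to assign.

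Of 27 receptors and kinases that signal with the ITAM adaptors, 25 had a count and 1 passed the filter. That gene, *Plcg2*, a phospholipase downstream of Syk, was called higher in the resting zone, with 14, 8, 15 and 11 counts against 3, 0, 0 and 0 (log2 fold change 4.35, SE 0.84, edgeR adjusted p = 0.00139). In the wider fit 5 of 25 were called higher in the resting zone, namely *Ptpn6*, *Plcg2*, *Syk*, *Lcp2* and *Oscar*, and 0 higher in the proliferative zone. *Oscar*, a receptor of osteoclasts that uses Fcer1g, had 15, 3, 5 and 6 counts against 3, 0, 0 and 0. Of 10 other genes of the CSF1 receptor axis, 3 passed the filter and all 3 were called higher in the resting zone. These included *Runx1*, a transcription factor of blood cell development, and *Csf2ra*, a subunit of the GM-CSF receptor. *Runx1* had 21, 25, 29 and 16 counts against 1, 3, 0 and 0 (log2 fold change 4.91, SE 0.67, edgeR adjusted p = 0.000265). The wider fit called 5 of these 10, and *Spi1*, which encodes PU.1, was not, with 5, 1, 5 and 0 counts against 2, 0, 0 and 0.

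The macrophage label was checked against a list of 24 other macrophage markers, of which 21 had a count. Several defining markers were at or near 0, which with the strand in doubt does not show that they were absent. *Cx3cr1*, *Cd14* and *Marco* had 0 counts in all 8 libraries, *Adgre1*, which encodes the macrophage marker F4/80, had 1 count, *Aif1* had 3 and *Ms4a7* had 2. Of the 6 markers that passed the filter, 5 were called higher in the resting zone, namely *Lyz2*, *Cd53*, *Cd68*, *Laptm5* and *Sirpa*, which are shared with neutrophils, osteoclasts or other leukocytes. *Cd68*, a lysosomal protein of macrophages and osteoclasts, had 68, 33, 84 and 67 counts against 19, 1, 1 and 0. *Mertk*, a receptor for dying cells, was the sixth marker, with a log2 fold change of -0.37 (SE 0.56, edgeR adjusted p = 0.652). The wider fit called 8 of 21, *Mrc1* and *Pf4* among them, with 0 called higher in the proliferative zone. The summed level of the list was 776 to 1260 CPM in the resting libraries and 35.9 to 225 CPM in the proliferative ones. The members are therefore described here as genes by role, and the cell type that carried them was not identified by its defining markers.

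Markers of other marrow and bone cells moved with the members. The counts that follow are from the filtered fit unless the wider fit is named. Of 14 osteoclast markers, 7 of 8 tested were called higher in the resting zone, with summed levels of 1970 to 4940 CPM against 102 to 529 CPM. *Acp5*, the osteoclast phosphatase, had 592, 186, 576 and 455 counts against 70, 16, 0 and 10, and *Ctsk*, the protease that degrades bone collagen, had 564, 187, 610 and 276 against 132, 16, 9 and 8. Of 11 neutrophil markers, 7 of 9 tested were called (3190 to 4210 CPM against 0 to 614 CPM). Of 8 erythroid markers, 4 of 7 tested were called (1800 to 11700 CPM against 0 to 1760 CPM), a count that moved from 0 to 7 with the setting. Of 12 B lymphoid markers, both genes tested, *Ighm* and *Cd79b*, were called (140 to 355 CPM against 3.27 to 37.8 CPM). Of 10 dendritic cell markers, 1 of 2 tested was called, namely *Cst3*, a protease inhibitor secreted by many cell types. In the wider fit 2 of 8 dendritic cell markers were called higher in the resting zone, with *Clec9a* as the other one. *Clec9a*, a receptor for dead cells on cross-presenting dendritic cells, had 8, 4, 16 and 1 counts against 0 in every proliferative library, and it overlaps *Clec1b* on the same strand by 184 exon bases. *Itgax*, which encodes CD11c, had 1, 1, 1 and 3 counts against 3, 0, 0 and 0.

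Endothelial markers summed to 218 to 293 CPM in the resting libraries and 80.7 to 143 CPM in the proliferative ones, and 0 of 1 tested was called, while 4 of 8 were called higher in the resting zone in the wider fit. The 9 T and NK cell markers and the 7 mast cell and basophil markers had no gene past the filter, and 0 of the 6 and 0 of the 5 with a count were called in the other fit. Of 14 chondrocyte markers, 9 were called for a higher level in the proliferative zone and 0 for a lower one (7420 to 19100 CPM in the resting libraries against 36300 to 62000 CPM). The part that these other cells play in the values of the members was not tested.

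Several of these list counts rested on single libraries or on the test. Of the erythroid markers, 7 were called with mouse as a block or without the proliferative library of mouse 1, 1 with DESeq2, 2 without the proliferative library of mouse 6, and 0 without the resting library of mouse 1 or the proliferative library of mouse 2 or 13. The osteoclast and neutrophil counts each fell from 7 to 4 without the proliferative library of mouse 2. The macrophage count fell from 5 to 3 without the resting library of mouse 1 or the proliferative library of mouse 2 or 13, and in the wider fit from 8 to 5 without the proliferative library of mouse 2 and to 4 without that of mouse 6. The chondrocyte count rose from 9 to 14 without the resting library of mouse 6. In the wider fit, without the proliferative library of mouse 2 or 6, the calls fell from 8 to 5 for the complement list, from 5 to 3 for the CSF1 receptor axis and from 5 to 2 for the partners of the ITAM adaptors, which also fell to 3 with mouse as a block. DESeq2 in the wider fit called 1 erythroid, 5 macrophage and 5 neutrophil markers, where edgeR called 8, 8 and 10. The 2 calls of the class II pathway were reduced to 1 with mouse as a block, and likewise without the resting library of mouse 1 or 13 or the proliferative library of mouse 2, 6 or 13. Among the endothelial markers, 1 to 4 were called in the filtered fit when any 1 library was left out. The filter then let in other genes, so the number tested changed with the library.

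**Figure D4:**
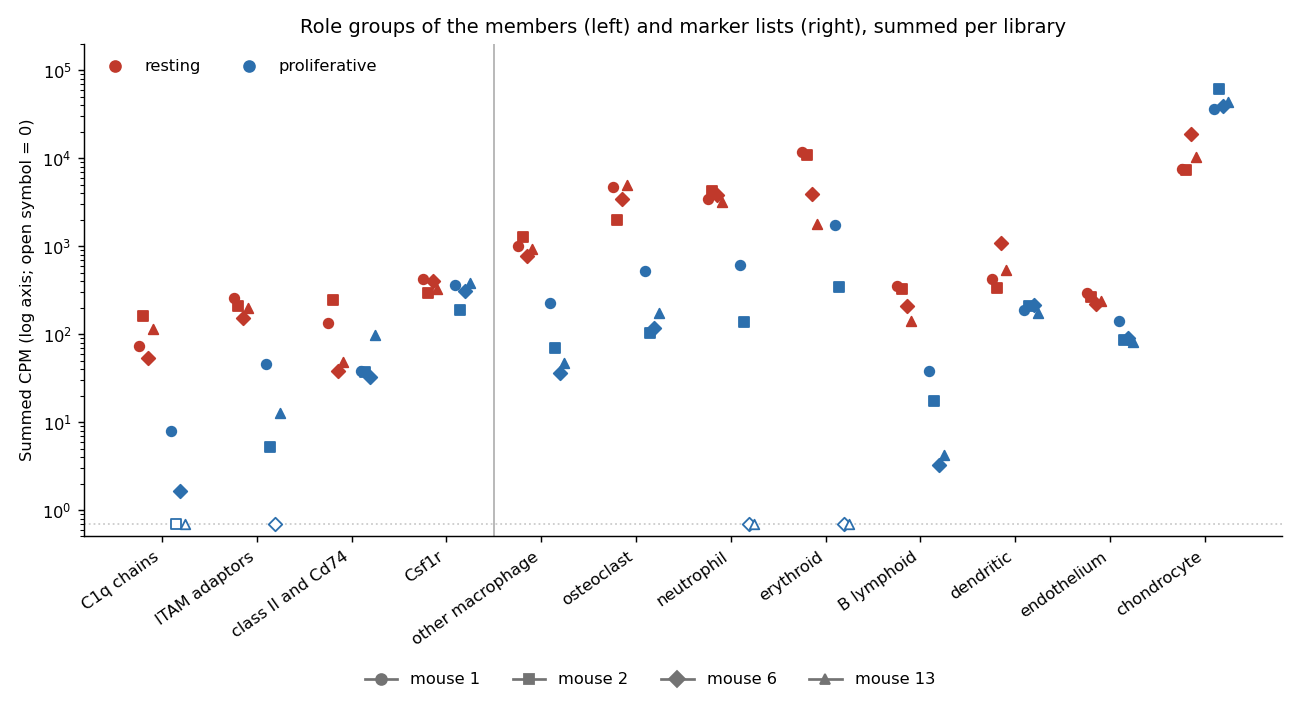
Summed TMM-scaled CPM per library (log axis, open symbols mark a sum of 0) for the role groups of the members, left of the gray line, and for marker lists of cell types, right of it. Red symbols are resting and blue symbols proliferative libraries, and each symbol shape is a mouse. The resting libraries lie above the proliferative ones for the C1q chains, the ITAM adaptors and the osteoclast, neutrophil, erythroid and B lymphoid lists, *Csf1r* lies at 187 to 423 CPM in both zones, and the proliferative library of mouse 1 is the highest of its zone for the C1q chains, the adaptors and the blood cell lists.

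The libraries that stood apart moved with the members as well. The proliferative library of mouse 1 was the highest of its zone for *C1qa*, *C1qb*, *C1qc*, *Tyrobp*, *Fcer1g*, *Cd74* and *H2-Aa*, and the resting library of mouse 6 was the lowest of its zone for *C1qa*, *C1qb*, *Tyrobp*, *Fcer1g*, *Cd74* and *H2-Aa*. When both libraries were left out, a choice made after seeing the data, 3 members were called in the filtered fit and 7 in the wider fit, where 14.1% of 3332 and 5.08% of 16524 genes were called toward the resting zone. The log2 fold change in the filtered fit was then 4.65 for *Tyrobp* (edgeR adjusted p = 0.000326), 7.00 for *Fcer1g* (edgeR adjusted p = 4.38e-05) and 0.33 for *Csf1r* (edgeR adjusted p = 0.443). In the wider fit it was 5.00 for *C1qc*, 4.83 for *H2-Aa*, 3.03 for *H2-Eb1* and -0.87 for *H2-Ab1*. *C1qa*, *C1qb* and *Cd74* were then at 0 in the proliferative zone, so that their fitted fold changes, which rose to 6.23, 7.39 and 6.62, depend on the prior count and are no bounds. In the filtered fit without both libraries 8 of 9 osteoclast, 8 of 8 neutrophil and 5 of 5 macrophage markers tested were called higher in the resting zone.

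The genes whose levels followed the members most closely were named by the Pearson correlation of log2(CPM + 1) over the 8 libraries, as a description. For the summed C1q chains these were *Tctn1* (r = 0.995), *Sepp1* (0.991), *Gm26669* (0.988), *Shisa3* (0.988) and *Lgals2* (0.986). The points fall into the 2 zones and share libraries and depth, and *Tctn1*, for example, had 15, 27, 19 and 25 counts against 4, 0, 1 and 0. All 5 share exon bases with a gene on the opposite strand. With a pseudocount of 10 in place of 1, *Ikzf1* and *Rac2*, genes of blood cells that share none, entered in place of *Gm26669* and *Lgals2*. *Tctn1* overlaps *Hvcn1* by 1574 exon bases, and *Hvcn1*, a proton channel of leukocytes, had 9, 15, 7 and 10 counts against 15, 33, 37 and 12 (log2 fold change -0.55, SE 0.47, edgeR adjusted p = 0.411). *Gm26669* overlaps *Zfp36l1* by 1672 exon bases, and *Zfp36l1* was called higher in the resting zone with 3.46 (SE 0.34, edgeR adjusted p = 8.7e-05). For the summed class II genes the closest were *Gm17651* (r = 0.947), *Tnks2* (0.938), *Cd97* (0.926), *Eif3f* (0.915) and *Sbno1* (0.888), none of which was called, with log2 fold changes of 0.41 to 0.79. Of these, *Tnks2* and *Eif3f* share no exon bases with an opposite-strand gene.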

How the data were processed

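RNA of laser-microdissected growth plate zones was amplified in 2 rounds of in vitro transcription before library preparation. The authors trimmed, aligned (HISAT2 2.1.0) and counted the reads (HTSeq-count 0.11.2) on GRCm38, and deposited raw counts per gene, which are used here without change. The strand setting of the counting is not given in the sources used here, and the counts were checked for it. Another deposited table gives edgeR results computed by the authors, of which only the gene names were taken. Genes were named from it and then from GENCODE M21, and promoters came from RefSeq.

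The counts were tested with edgeR 4.0.16 in R 4.3.3 (TMM factors 0.913 to 1.12, quasi-likelihood test, zone as the only term, Benjamini-Hochberg adjustment). A gene was called at an adjusted p below 0.01 and an absolute log2 fold change above 1. Genes were filtered by zone (minimum count 10, minimum total 15), which left 3793. A fit over all 17492 genes with a count served the members below this filter. Log2 fold changes are resting over proliferative. For single values an exact permutation test was run across the 8 libraries, and pooled ratios carry exact 95% binomial intervals. DESeq2 1.42.0 was an alternative.

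By the labels, a shared number marks a shared animal. After removal of the zone means, such libraries correlated across genes with r = 0.195, 0.0106, 0.144 and 0.0637 in mice 1, 2, 6 and 13. No block is named in the study's methods, so none was used in the main fit. No libraries were duplicates, as the chi-square per degree of freedom between libraries of a zone was at least 4.94.

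Counts were simulated with real means, the same dispersion for every gene and no variation shared within a library. There the filtered fit on 3961 genes recovered 177 of 195 changed genes (90.8%) and called 1 unchanged gene. The fit over 16634 genes recovered 130 of 200 low-count genes changed 8-fold (65%). As the spread of real genes differs from gene to gene, these rates need not hold for the data. The members and lists were chosen with earlier results of these data known. Named are all members, the called genes and up to 5 genes with the lowest adjusted p of each list, genes whose exons overlap a member, and the 5 genes closest to the summed C1q and to the summed class II genes. Some genes of the lists that this rule names are not reported here.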

Additional observations from a re-analysis of the deposited data

Results flagged for a closer look

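In 5 of 20 groups of 4 libraries, 1 library lay far from the other 3, its gap to the nearest exceeding Dixon's 95% critical share of the range. Chance flags about 1 in 20 such groups where values are continuous, but a group with counts in only 1 library is always flagged. Groups of one library also share their depth, so the flags are not independent. In the proliferative zone, the library of mouse 1 held 1.99 CPM of *C1qa* (1 count), 3.98 CPM of *C1qb* (2 counts) and 1.99 CPM of *Cd74* (1 count), where the other 3 libraries held 0. These rest on 1 or 2 counts each. For *Fcer1g* the same library held 25.8 CPM (13 counts) against 0 to 4.25 CPM in the others. This library was also the highest of its zone for neutrophil, erythroid and B lymphoid markers, and the part these cells play was not tested. For *H2-Ab1* the proliferative library of mouse 13 held 97.7 CPM (23 counts) against 26.1 to 31.5 CPM in the others, and it was the shallowest library of its zone.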

How the results depend on the processing

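The number of members called higher in the resting zone depended mainly on the filter on low counts. It was 2 in the filtered fit, where 11.0% of all genes tested were called toward the resting zone. With all genes with at least 1 count it was 7 (4.74% of all genes). With at least 15 counts in all libraries together (added after seeing the data) it was 6 (4.71%). With at least 10 counts in every library it was 0, and *Csf1r* was the only member tested. Leaving out 1 library gave 2 to 4 in the filtered fit and 4 to 8 in the fit over all genes with a count, the lowest without the resting library of mouse 2. Leaving out both libraries of a mouse gave 0 without mouse 2, 1 without mouse 13 and 3 without mouse 1 or 6, where 6.38%, 4.15%, 8.89% and 11.3% of all genes tested were called toward the resting zone. No alternative called a member higher in the proliferative zone. The log2 fold change of *Csf1r* changed sign without the proliferative library of mouse 2 (-0.02 in the filtered fit and -0.13 with all genes with a count), and in the wider fit without the resting library of mouse 1 (-0.02) and without that of mouse 6 (-0.10), and its range in the filtered fit was -0.02 to 0.35 without 1 library and 0.17 to 0.40 without 1 mouse. It was never called. The replicate block of mouse gave 2 and 7 members called in these fits and changed no member's call, with edgeR adjusted p = 0.00167 for *Tyrobp*, 0.00145 for *Fcer1g* and 0.0398 for *H2-Eb1*. With the block, 10.1% of the 3793 filtered genes were called toward the resting zone and 6.06% toward the proliferative zone. The count of 2 also held with DESeq2, with the likelihood ratio test, with other scaling factors, with edgeR's glmTreat and with a threshold of 0.05 on the adjusted p, and the count of 7 held with the first 2 of these. Shares of all genes called are not reported here for these settings, for 10 counts in every library or for 1 library left out. Counts without such a share cannot be set against the background. Over all alternatives, 13 values of single members fell short of a call made in the main fits and 2 gained one. The cause of these changes was not tested. Without scaling factors the median log2 fold change of all genes moved by 0.19. With a pseudocount of 10, 3 of the 5 genes closest to the C1q chains and 5 of the 5 closest to the class II genes were the same. Depth limits these results, since 6 of the 10 members did not pass the filter.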
